A study of Mus musculus with 32 samples.

Results

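The libraries described here measured total RNA of the whole mouse cochlea 6 h after damaging noise, set against control cochleae. They were chosen by their labels alone: 5 libraries at 6 h and 5 control libraries, together 10 of the 32 libraries of the series. All mice were 10 weeks old and belonged to 2 strains. The labels give the Prestin strain as PrestinCre/+;RiboTagHA/+ (PrestinCreERT2;RiboTag;CBA in the series text) and the Sox2 strain as Sox2Cre/+;RiboTagHA/+ (Sox2CreERT2;RiboTag;CBA). Every mouse, controls included, therefore carried a Cre driven by Prestin, the motor protein of outer hair cells, or by Sox2, a transcription factor of supporting cells. Every mouse also carried RiboTag, an allele that puts an HA tag on the ribosomal protein Rpl22 where Cre is active. Noise was given at 105 dB SPL for 2 h and the cochleae were taken 6 h later, while control mice had no noise. Part of each homogenate gave the total RNA analysed here (the input) and the remainder an HA pull-down (IP). The Prestin strain gave 3 libraries per group and the Sox2 strain 2 per group.

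The cochlea holds sensory hair cells and supporting cells, the spiral ganglion with its glia, the stria vascularis that makes the potassium-rich endolymph, fibrocytes, bone, vessels and resident macrophages. After injury, tissues switch on immediate early genes, whose transcription needs no new protein, and these encode transcription factors, feedback inhibitors of kinase signalling and factors that destabilise mRNA. A second layer holds secreted signals, among them chemokines that call in leukocytes, growth factors and the stress hormone Gdf15, and enzymes that remodel the matrix around cells.

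Levels are given as TPM, a gene's share of a library's transcripts after correction for length, and differences as log2(TPM + 1) at 6 h minus control ± standard error of the limma fit. A gene is said to rise or fall where its adjusted p was under 0.05 (limma, Benjamini-Hochberg over the 14204 genes tested, two-sided). Where 5 values are listed, they are Prestin strain replicates 1, 2 and 3, then Sox2 strain replicates 1 and 4 for controls or 2 and 4 at 6 h. The fit shares its estimate of spread with the 6 inputs taken 24 h after noise. The labels speak of biological triplicates without saying what each library was made from, and p-values measure the spread between these libraries. Because TPM are shares, the number of reads behind a value is not known.

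Replicates within a group correlated across genes with r of 0.943 to 0.978, lowest for the Sox2 pair at 6 h. That pair listed 16966 and 15929 genes above 0, against 18737 to 19764 in the other 8 libraries. Values were given for 43947 genes in the Sox2 strain and 39399 in the Prestin strain. Over the genes listed for both, the pair had 16439 and 15505 above 0, against the same range elsewhere. Of these genes, 54 were at 0 in all Sox2 inputs but averaged at least 5 TPM in the Prestin inputs, and 67 the reverse. Strain and quantification therefore cannot be told apart. Transcripts of the mitochondrial genome took 23.1% to 28.6% of the TPM at 6 h and 20.5% to 25.1% in controls (exact permutation test within strains, two-sided p = 0.0833, n = 5 per group). Some transcripts stood out in single libraries. Prestin 6 h replicate 2 held 109 TPM of Neurod1 and 19.2 TPM of Gad1, neuronal genes that stayed at 6.68 TPM or less in the other 9 libraries. Muscle actin Acta1 reached 191 TPM in Prestin 6 h replicate 1, against 53.4 TPM or less elsewhere. The neuropeptide gene Sst stood at 76.6 and 111 TPM in the Sox2 controls and at 0.241 and 0.695 TPM in the Sox2 libraries at 6 h.

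At 6 h, 544 genes rose, 3.83% of those tested, and 669 fell, 4.71%, so that 8.54% were called in all. Counts of called genes in the lists below are to be read beside these shares. Rises had a median of 0.52 and 113 of them passed 1 on the log2 scale, while falls had a median of -0.48 and 62 of them passed -1. The median of all tested genes was -0.09. With median-of-ratios scaling, which brings that median to -0.03, the counts became 793 higher and 432 lower. All 5 libraries at 6 h lay above all 5 controls for 430 genes (3.03%) and below them for 450 (3.17%). Without Sox2 control replicate 1, 783 genes passed in place of 1213, and a fit on the 10 libraries alone called 562. In whole tissue, fewer cells of a type and less RNA per cell cannot be told apart.

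**Figure D1:**
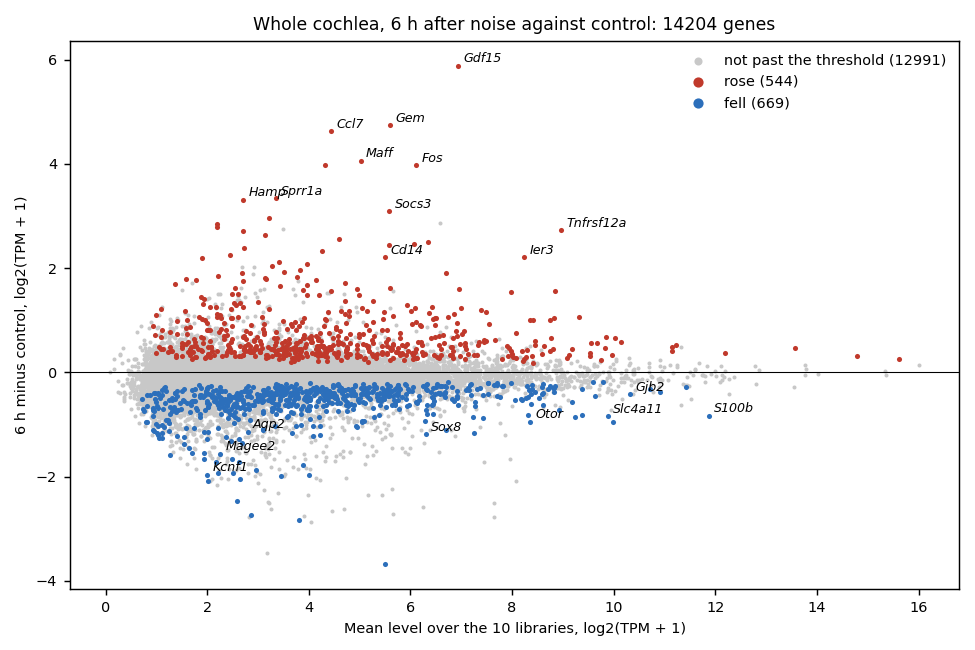
Each point is a gene, with its mean level over the 10 libraries on the horizontal axis and its difference between 6 h and control on the vertical axis, both as log2(TPM + 1). Red points (544) rose and blue points (669) fell, and the rises reach 5.89 for Gdf15 while most falls lie between 0 and -1.

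Gdf15, Fos and Ccl7, the markers of the 6 h libraries against control, were each higher in every library at 6 h than in any control. Ccl7 did not differ between 6 h and 24 h by the test, as given below. Gdf15 (ENSMUSG00000038508), a hormone of the TGF-beta superfamily released by stressed cells, stood at 2.73, 0.377, 3.08, 4.92 and 7.78 TPM in controls and at 232, 216, 222, 240.3 and 289 TPM at 6 h. The groups did not overlap, and the difference was the largest of all genes tested (5.89 ± 0.37, adjusted p = 5.35e-07). Fos (ENSMUSG00000021250, chr12:85473890-85477273), a subunit of the AP-1 transcription factor, stood at 4.70, 2.93, 6.80, 7.29 and 21.2 TPM in controls and at 119.6, 117, 93.8, 131 and 176 TPM at 6 h. Ccl7 (ENSMUSG00000035373, chr11:82045712-82047525), a chemokine for monocytes, was at 0.719, 0, 1.22, 0.1204 and 0.134 TPM in controls and at 49.6, 20.0, 17.97, 22.3 and 95.04 TPM at 6 h. For both genes the groups were apart, and Sox2 6 h replicate 4 was the highest library.

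**Figure D2:**
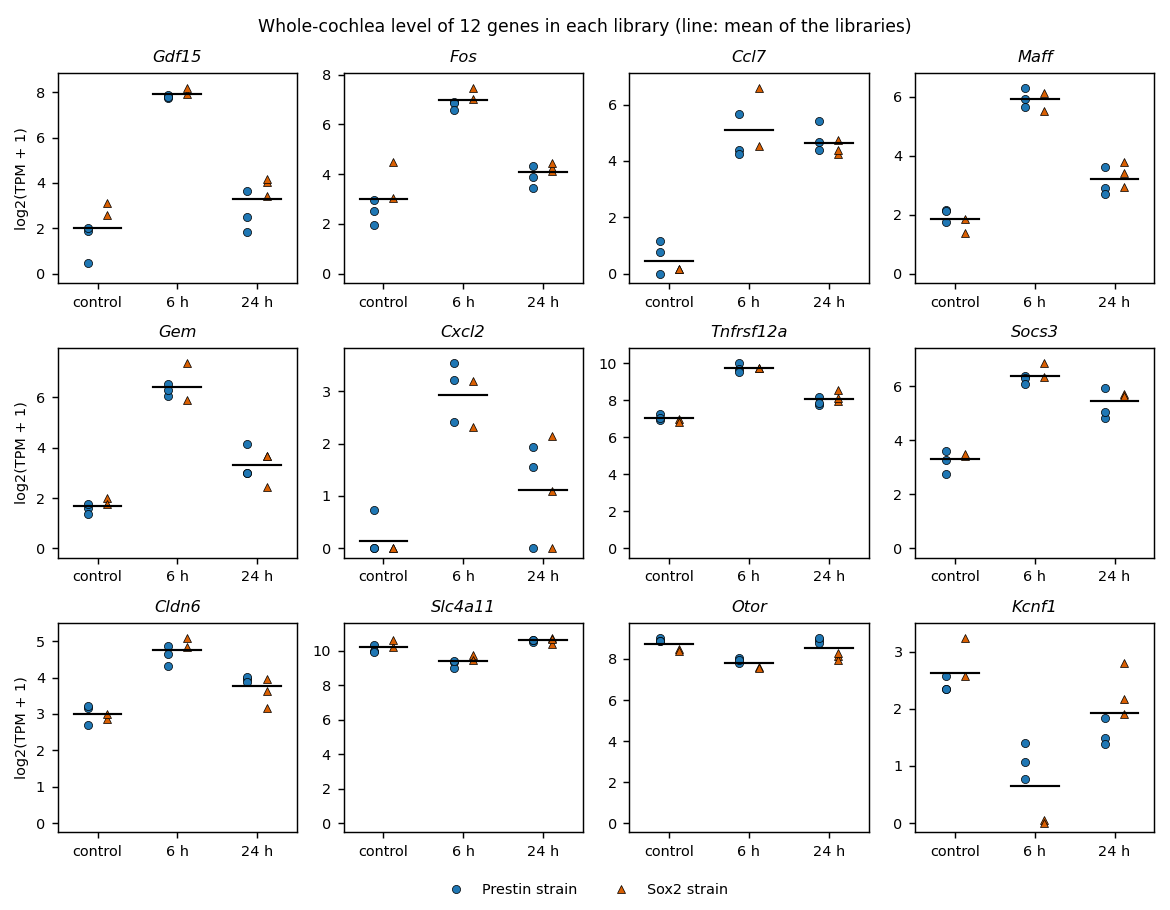
Level of 12 genes in every whole-cochlea library as log2(TPM + 1), by time after noise; circles are Prestin strain libraries, triangles Sox2 strain libraries and lines the mean of the libraries at that time. Gdf15, Fos, Maff and Gem peak at 6 h, Ccl7 is above its controls at both times, and Slc4a11, Otor and Kcnf1 are lowest at 6 h.

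Promoters of 6 genes that rose by more than 1 on the log2 scale are shown because they carry the motifs counted below, and they come from several groups of genes: immediate early factors (Fos, Nr4a1), chemokines (Cxcl2), cytokine feedback (Socs3), nerve injury (Sprr1a) and the secreted peptide Hamp. Each is the 250 bases before the start site in RefSeq, build GRCm38.p6, read 5′ to 3′ on the strand of the gene. Capitals mark motif matches on either strand: TGACG (or its reverse complement) of the cAMP response element, the NF-kB site, the STAT motif TTCNNNGAA, the AP-1 motif TGANTCA and, on the gene's strand, the TATA box TATAAA. The NF-kB site is given by its name because its motif needs letters for more than 1 base. The Fos window is chr12:85473640-85473889 on the plus strand, Nr4a1 chr15:101266596-101266845 on the plus strand, Cxcl2 chr5:90903649-90903898 on the plus strand, Socs3 chr11:117969367-117969616 on the minus strand, Sprr1a chr3:92485882-92486131 on the minus strand and Hamp chr7:30944030-30944279 on the minus strand.
Fos: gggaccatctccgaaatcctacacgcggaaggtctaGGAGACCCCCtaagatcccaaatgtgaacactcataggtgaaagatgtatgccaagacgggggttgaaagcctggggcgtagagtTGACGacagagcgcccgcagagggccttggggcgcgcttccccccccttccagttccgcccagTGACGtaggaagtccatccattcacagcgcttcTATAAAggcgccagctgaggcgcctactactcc
Nr4a1: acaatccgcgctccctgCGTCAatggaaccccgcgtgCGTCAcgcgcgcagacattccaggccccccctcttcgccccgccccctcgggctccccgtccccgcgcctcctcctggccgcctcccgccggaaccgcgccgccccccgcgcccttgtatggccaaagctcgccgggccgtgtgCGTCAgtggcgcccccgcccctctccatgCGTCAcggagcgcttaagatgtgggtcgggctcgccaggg
Cxcl2: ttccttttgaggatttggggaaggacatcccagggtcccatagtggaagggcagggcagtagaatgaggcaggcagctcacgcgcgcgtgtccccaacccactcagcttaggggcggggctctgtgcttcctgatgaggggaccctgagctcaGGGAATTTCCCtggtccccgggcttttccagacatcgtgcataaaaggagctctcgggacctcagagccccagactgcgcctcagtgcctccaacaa
Socs3: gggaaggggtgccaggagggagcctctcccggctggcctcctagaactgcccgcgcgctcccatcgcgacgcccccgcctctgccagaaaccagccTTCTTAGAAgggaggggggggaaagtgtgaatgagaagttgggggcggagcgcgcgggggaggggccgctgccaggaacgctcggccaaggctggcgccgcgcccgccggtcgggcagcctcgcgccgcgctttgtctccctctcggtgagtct
Sprr1a: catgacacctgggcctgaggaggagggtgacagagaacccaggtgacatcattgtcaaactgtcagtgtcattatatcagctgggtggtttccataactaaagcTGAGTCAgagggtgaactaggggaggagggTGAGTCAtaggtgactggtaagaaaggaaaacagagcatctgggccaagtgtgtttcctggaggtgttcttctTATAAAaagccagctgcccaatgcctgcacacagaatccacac
Hamp: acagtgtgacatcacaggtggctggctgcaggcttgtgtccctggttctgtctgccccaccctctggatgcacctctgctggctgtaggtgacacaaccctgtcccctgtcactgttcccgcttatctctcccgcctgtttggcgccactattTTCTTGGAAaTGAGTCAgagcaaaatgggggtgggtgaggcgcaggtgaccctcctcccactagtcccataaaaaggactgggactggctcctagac

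The Fos window holds TGACG at -129 and -66 from the start site, an NF-kB match at -214 and TATAAA at -33, and the Nr4a1 window holds the reverse complement of TGACG at -233, -213, -69 and -40. Cxcl2 has overlapping NF-kB matches at -97 and -96. Socs3 has a STAT match at -154, Sprr1a has AP-1 matches at -146 and -116 and TATAAA at -43, and Hamp has a STAT match at -97 beside an AP-1 match at -87. Windows were given for 80 of the 113 genes that rose by more than 1, 99 windows in all because some genes have several start sites. Of these, 11.1% held the AP-1 motif, against 4.31% of the 12371 windows of 9768 tested genes. The NF-kB site was in 19.2% against 9.03%, TGACG in 39.4% against 26.1%, and TATAAA in 10.1% against 4.01%. The STAT motif was in 10.1% against 5.58%, the interferon-stimulated response element in 5.05% against 2.45%, and the E-box CACGTG in 11.1% against 8.29%. The heat shock motif TTCNNGAA was in 7.07% against 5.65%, the C/EBP-ATF motif TGATGNAA in 3.03% against 1.9%, and the CArG box of serum response factor in 2.02% against 1.14%. Over the 514 windows of all 414 genes that rose and had one, the shares were nearer to the background or below it, at 7.78% for AP-1, 13.2% for NF-kB, 29.4% for TGACG, 5.45% for TATAAA, 6.61% for STAT, 4.67% for heat shock and 2.14% for C/EBP-ATF. Over the 658 windows of genes that fell, they were 5.32%, 10.3%, 23.1%, 4.41%, 5.32%, 6.84% and 3.19%, in the same order. The shares are descriptions of letters in these windows and were not tested.

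Among secreted signals, CC chemokines rose in a few members only. Of 12 tested, Ccl7 and Ccl2 rose and none fell, with a list median of 0.29. The median was 0.08 without Sox2 6 h replicate 2 and 0.64 without Sox2 6 h replicate 4, and 3 of 11 members rose in the Prestin libraries alone. Ccl2, the main attractant of inflammatory monocytes, stood at 0.693, 0.368, 2.80, 3.48 and 0.129 TPM in controls and 61.0, 33.0, 23.1, 17.0 and 46.8 TPM at 6 h. Ccl3 and Ccl4, chemokines made by macrophages, were listed at 0 in both Sox2 libraries at 6 h and at 1.71 to 1.84 TPM and 0.862 to 3.12 TPM in the 3 Prestin libraries, and neither passed the test. Ccl12 was likewise uneven at 6 h, from 0 to 12.9 TPM.

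Of 11 CXC and CX3C chemokines tested, Cxcl2, Cxcl1, Cxcl10 and Cxcl16 rose and none fell. Cxcl2, a neutrophil attractant, was listed at 0 in 4 controls and at 0.670 TPM in Prestin control replicate 2, and reached 10.7, 8.25, 4.31, 3.96 and 8.10 TPM at 6 h. Its neighbour Cxcl1 was at 14.3, 8.96, 10.4, 0 and 20.0 TPM at 6 h, so 1 Sox2 library held none, against at most 0.739 TPM in controls (2.72 ± 0.57, adjusted p = 0.00877). Cxcl16, which is also made as a membrane-bound form, lay at 10.6 to 13.0 TPM in controls and 21.8 to 32.2 TPM at 6 h, with no overlap. In the Prestin libraries alone, 2 of 10 members tested passed. None of the 6 chemokine receptors tested passed, although 1 rose in the Prestin libraries alone, with median-of-ratios scaling and without Sox2 6 h replicate 2. Ccr2, the receptor for Ccl2 and Ccl7, and Cxcr2, that for Cxcl1 and Cxcl2, were under 1.27 TPM in all 10 libraries.

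The interleukin-6 family was represented by receptors and intracellular parts more than by ligands. Of 25 genes tested 9 rose and none fell, with a median of 0.08. The ligand Il6 was listed at 0 in all controls and at up to 1.51 TPM at 6 h, and Lif at 0 to 0.331 TPM in controls and 0.515 to 2.34 TPM at 6 h; both were below the filter on low values and were not tested. Osmr, the oncostatin M receptor, rose from 0.392 to 0.727 TPM to 1.40 to 1.96 TPM (0.81 ± 0.13, adjusted p = 0.00191), and Cntfr rose by 0.50. The shared receptor chain Il6st was at 41.5 to 50.9 TPM in controls and 46.8 to 63.0 TPM at 6 h and did not pass. Stat3, the transcription factor these receptors activate, was at 8.48, 9.25, 7.29, 9.76 and 9.17 TPM in controls and at 17.3, 14.7, 14.6, 14.8 and 19.9 TPM at 6 h. Socs3, the inhibitor that STAT3 induces to shut the receptor down, went from 8.61, 11.1, 5.797, 9.68 and 10.4 TPM to 83.2, 77.8, 67.0, 79.6 and 117 TPM. Groups were apart for Osmr, Stat3 and Socs3. Hamp, the iron-regulating peptide hepcidin and a STAT3 target in liver, was at most 0.470 TPM in controls and at 18.9, 11.6, 11.9, 5.62 and 6.60 TPM at 6 h.

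Growth factor signals rose in a few members. Hbegf, a membrane-anchored ligand of the EGF receptor, stood at 4.12, 3.56, 4.59, 6.32 and 5.66 TPM in controls and 22.8, 18.4, 15.7, 25.4 and 40.2 TPM at 6 h. Of 8 genes of the EGF receptor system tested 3 rose, the others being Erbb3 (0.47) and the sheddase Adam10 (0.28), while Egfr itself was 0.04 ± 0.10. Only 1 of the 8, Hbegf, passed when the Prestin libraries were fitted alone. Of 28 genes of the TGF-beta, BMP and activin systems 7 rose and none fell, with a median of 0.21. Tgfb1 stood at 3.59 to 5.37 TPM in controls and 7.82 to 12.3 TPM at 6 h (1.07 ± 0.15, adjusted p = 0.000552), while Tgfb2 (0.25), Inhba (-0.06) and Bmp2 (0.24) did not pass. Bmp6 rose by 0.63, and the matrix protein gene Tgfbi by 0.65. Artn, a ligand of the GDNF family that supports sensory neurons, rose by 1.09, from 1.31 to 3.40 TPM to 3.30 to 6.79 TPM, with 1 Prestin library at 6 h inside the control range. Sprr1a, known from regenerating axons and from stressed epithelia, reached 25.8, 11.2, 20.8, 17.98 and 11.4 TPM at 6 h, against 2.15 TPM or less in controls. It and Artn were the members that rose among 13 neurotrophin and nerve injury genes tested, of which none fell. Fitted alone, the Prestin libraries gave 1 call among 12 tested.

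Tnfrsf12a, the receptor for the cytokine TWEAK, stood at 154, 123, 129.9, 127 and 112 TPM in controls and 1036, 824, 737, 855 and 857 TPM at 6 h (2.73 ± 0.14, adjusted p = 1.06e-07). Its ligand Tnfsf12 fell by 0.61 ± 0.15 (adjusted p = 0.0214), from 4.08 to 5.30 TPM to 1.83 to 4.15 TPM, and only Sox2 6 h replicate 4 reached the control range. Of 13 interleukin-1 and TNF family genes tested, Tnfrsf12a and Tnfrsf1a rose and Tnfsf12 and Il18 fell, with 1 fall in the Prestin libraries alone and 1 without Sox2 control replicate 1. Tnf and Il1b themselves stayed at 1.65 TPM or less in all 10 libraries and were not tested. Epha2, a receptor tyrosine kinase for ephrins, went from 1.11, 0.935, 0.551, 0.644 and 0.916 TPM to 8.83, 5.77, 5.82, 6.65 and 13.4 TPM, and its ligand gene Efna1 rose by 0.61. Among 9 leukocyte adhesion genes tested, Pvr, the poliovirus receptor family protein CD155, and Icam1, the ligand of leukocyte integrins, rose and none fell. Pvr lay at 2.64 to 3.51 TPM in controls and 10.7 to 14.9 TPM at 6 h, and had the lowest adjusted p of all genes tested (1.78 ± 0.08, adjusted p = 3.53e-08). Vcam1 was 0.06 ± 0.10, and the selectins Sele and Selp were under 0.12 TPM throughout.

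Transcription factors of the immediate early class rose together. Of 12 Fos, Jun, Maf and Atf3 genes tested 10 rose and none fell, with a median of 1.83. Mafg did not pass. Fosl1 was at most 0.0621 TPM in controls and at 9.93, 6.43, 5.57, 2.19 and 11.8 TPM at 6 h. Fosb went from 0.596 to 2.55 TPM to 7.77 to 31.4 TPM, and Junb from 18.4, 16.8, 15.97, 28.0 and 38.4 TPM to 126, 110.0, 89.8, 138 and 221 TPM. Maff, a small Maf protein that lacks an activation domain, went from 2.35, 3.45, 3.32, 1.59 and 2.62 TPM to 77.3, 59.7, 49.5, 44.6 and 69.5 TPM. The same 10 of 12 count was found with the Prestin libraries alone. The groups were apart for all 10.

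Of 22 genes of the Egr, Nr4a, Ier and Klf families 13 rose and none fell, with a median of 0.86, and 13 passed with the Prestin libraries alone. Nr4a1, an orphan nuclear receptor, stood at 4.38, 5.73, 5.45, 5.98 and 6.32 TPM in controls and 31.6, 30.7, 38.3, 25.0 and 79.4 TPM at 6 h. Egr1, a zinc finger factor downstream of ERK, was at 11.1 to 33.3 TPM in controls, highest in the Sox2 pair, and at 85.2 to 188 TPM at 6 h. Ier3, a regulator of survival downstream of NF-kB and ERK, was at 91.9 to 118 TPM in controls and 372 to 788 TPM at 6 h. Egr4, Egr3 and Arc, activity genes of neurons, did not pass. Myc was uneven, at 4.73, 8.19 and 9.05 TPM in the Prestin libraries at 6 h and 2.52 and 2.32 TPM in the Sox2 libraries, against 2.04 to 2.89 TPM in controls. Neither its rise nor its difference between strains passed (adjusted p = 0.128 and 0.0626).

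NF-kB genes rose in part. Of 18 subunits and inhibitors tested 7 rose and none fell, with a median of 0.36. The subunits of the non-canonical arm, Nfkb2 (1.05 ± 0.15) and Relb (1.04 ± 0.13), rose, as did the canonical subunit Rela (0.20), while Nfkb1 (0.21) and Rel (0.46) did not pass. Bcl3, an atypical inhibitor that binds NF-kB in the nucleus, stood at 0.516 to 1.78 TPM in controls and 2.53 to 5.90 TPM at 6 h. Cebpb and Cebpd, factors that act with NF-kB and STAT3 on acute phase genes, lay at 173 to 193 TPM and 26.8 to 55.2 TPM at 6 h, against 40.4 to 71.5 TPM and 8.57 to 13.6 TPM in controls. The groups were apart for Nfkb2, Relb, Bcl3, Cebpb and Cebpd but not for Rela.

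Feedback inhibitors of kinase signalling rose as well. Of 14 MAP kinase phosphatases and Sprouty-type inhibitors tested 8 rose and none fell, with a median of 0.52. Dusp1 stood at 4.96, 5.27, 6.06, 6.34 and 10.16 TPM in controls and 22.98, 19.5, 23.6, 20.6 and 25.7 TPM at 6 h. Dusp6, which acts on ERK, went from 52.0 to 81.7 TPM to 86.0 to 151 TPM, and the inhibitor Spry4 from 6.21 to 9.86 TPM to 13.9 to 19.0 TPM, both without overlap. Gem, a GTP-binding protein that inhibits voltage-gated calcium channels, rose by 4.74 ± 0.31, from 2.002, 2.40, 1.56, 3.01 and 2.43 TPM to 91.6, 66.0, 77.0, 59.5 and 166 TPM. Of 7 mRNA decay factors 5 rose and none fell. These were Zfp36, which binds AU-rich mRNAs of cytokines, at 44.4 to 59.7 TPM in controls and 90.7 to 142 TPM at 6 h, its relatives Zfp36l1 and Zfp36l2, and the deadenylase partners Btg1 and Btg2. The Prestin libraries alone gave 7 phosphatases and inhibitors of 15 tested and 3 decay factors.

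**Figure D3:**
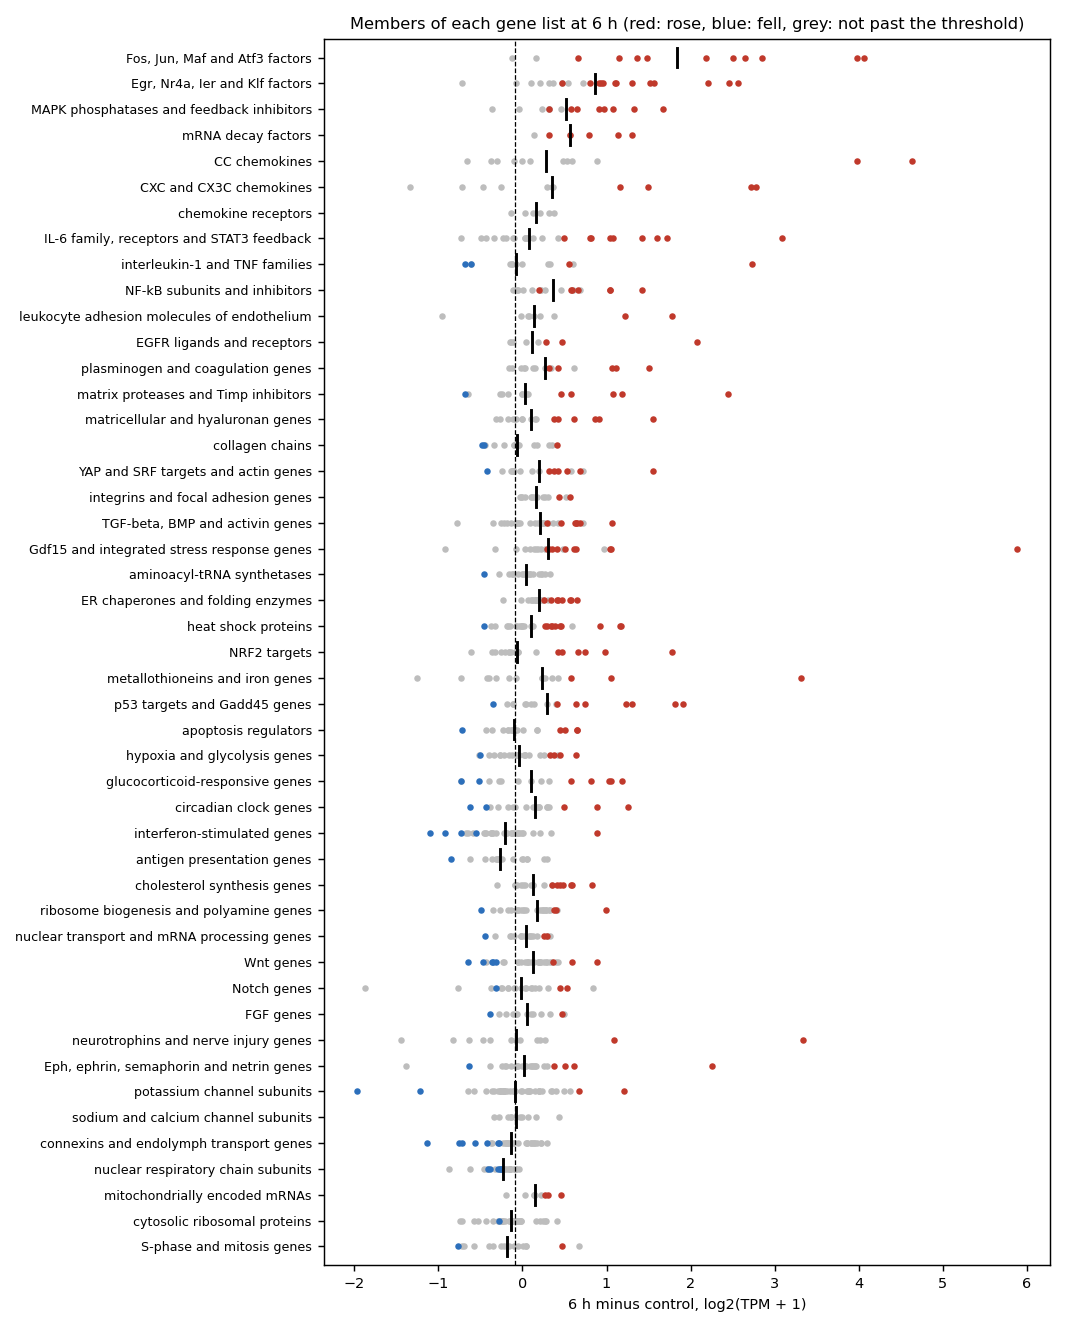
Each point is a tested member of a gene list, placed by its difference between 6 h and control as log2(TPM + 1); red rose, blue fell and grey did not pass, black bars are list medians and the dashed line is the median of all 14204 genes (-0.09). Medians are farthest right for the Fos, Jun, Maf and Atf3 factors (1.83) and the Egr, Nr4a, Ier and Klf factors (0.86).

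Stress response lists had smaller medians than the immediate early lists, and a minority of members or none rose in each. Beside Gdf15, 9 of 21 other genes of the integrated stress response tested rose and none fell. Ppp1r15a, a subunit of a phosphatase that acts on eIF2-alpha, went from 52.0, 48.5, 70.7, 60.4 and 55.1 TPM to 125, 129, 113, 108 and 119 TPM. The glutathione-degrading enzyme gene Chac1 went from 1.32 to 3.53 TPM to 4.24 to 11.8 TPM. The pathway's transcription factors Atf4 and Ddit3 rose by 0.41 and 0.50. Genes of amino acid supply did not pass, with Asns at 0.27 and Psat1 at 0.03, and neither did the kinase-like Trib3 (0.16). Among 20 aminoacyl-tRNA synthetases none rose and 1, Dars, fell, while 4 rose with median-of-ratios scaling. Of the 22 stress response genes, Gdf15 included, 6 passed in the Prestin libraries alone.

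Of 24 chaperones and folding enzymes of the endoplasmic reticulum 8 rose and none fell, with a median of 0.19. Hspa5 (BiP), the lumenal Hsp70, stood at 516, 573, 636, 634 and 637 TPM in controls and 913, 799.9, 815, 931 and 1001 TPM at 6 h, and Hyou1 rose by 0.65 ± 0.06. Xbp1 and Herpud1 did not pass. Of 27 cytosolic and mitochondrial heat shock genes 10 rose and 1, Chordc1, fell. The stress-inducible Hsp70 genes Hspa1a and Hspa1b rose by 1.16 and 1.17, but they are near-identical copies whose reads the counting may have divided between them. Hspb1, a small heat shock protein, was at 308, 281 and 269 TPM in the Prestin libraries at 6 h and at 163 and 206 TPM in the Sox2 libraries, against 102 to 135 TPM in controls. In the Prestin libraries alone 5 reticulum genes and 3 heat shock genes rose.

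Of 19 NRF2 targets 6 rose and none fell, with a median of -0.06. Osgin1 went from 0.140 to 0.845 TPM to 1.84 to 7.63 TPM, Gclc, the limiting enzyme of glutathione synthesis, from 5.05 to 8.21 TPM to 11.6 to 16.5 TPM, and Hmox1, haem oxygenase, from 12.7 to 16.8 TPM to 18.4 to 31.3 TPM. The groups were apart for the 3 genes, whereas the classical target Nqo1 was -0.16 and did not pass. Of 17 p53 targets and Gadd45 genes 7 rose and 1, Sesn1, fell, and 7 rose with the Prestin libraries alone. Gadd45b stood at 39.9, 38.8, 40.2, 47.7 and 37.3 TPM in controls and 186, 163, 118, 94.4 and 269 TPM at 6 h, and Cdkn1a, the cell cycle inhibitor p21, at 83.9 to 103 TPM and 138 to 182 TPM. Mdm2 (0.14), Bax (0.04) and Zmat3 (0.02) did not pass. Metallothionein genes Mt1 and Mt2 rose by 0.57 and 1.06, both highest in Prestin 6 h replicate 2 at 1594 and 1401 TPM, and their groups overlapped.

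The plasminogen system and several matrix proteases rose. Of 15 plasminogen and coagulation genes tested 5 rose and none fell, with a median of 0.27. Plat, the tissue plasminogen activator, stood at 16.4, 16.8, 14.5, 14.02 and 15.5 TPM in controls and 45.7, 32.2, 30.9, 35.8 and 30.3 TPM at 6 h. The urokinase gene Plau rose too, although Sox2 control replicate 4 (4.23 TPM) exceeded Sox2 6 h replicate 4 (3.52 TPM). The protease Adamts1, which cleaves aggrecan and versican, went from 16.1, 20.1, 14.95, 6.75 and 13.3 TPM to 88.2, 78.4, 71.0, 57.9 and 99.9 TPM. Of 14 matrix proteases and Timp inhibitors 5 rose and 1, Mmp11, fell, while 2 rose with the Prestin libraries alone and 3 without Sox2 control replicate 1.

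Of 17 matricellular and hyaluronan genes 6 rose and none fell. Ccn1, an integrin ligand and a target of YAP and serum response factor, stood at 115, 127, 127, 122 and 139 TPM in controls and 361, 297, 382, 328 and 518 TPM at 6 h. Thbs1 rose by 0.87, the hyaluronan receptor gene Cd44 by 0.91 and Spp1, osteopontin, by 0.38 from control levels of 3609.8 to 4466 TPM. Of 17 YAP and serum response targets and actin genes 6 rose and 1, Cnn2, fell, with 3 rises in the Prestin libraries alone and 3 without Sox2 control replicate 1. Of 16 collagen chains 1, Col4a2 of basement membranes, rose and 2 fell. Those were Col9a1 (-0.45) and Col9a2 (-0.48), chains of collagen IX, a collagen of the tectorial membrane. No collagen passed with the Prestin libraries alone.

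Metabolic and hormone-related lists moved in part. Of 19 cholesterol synthesis genes 7 rose and none fell, with Sqle at 13.3 to 17.8 TPM in controls and 21.4 to 37.4 TPM at 6 h. Of 15 glucocorticoid-responsive genes 5 rose and 2, Zbtb16 and Cdkn1c, fell. Sgk1 went from 11.4, 11.6, 12.02, 11.5 and 14.05 TPM to 25.2, 20.7, 24.7, 25.4 and 33.4 TPM and Pdk4 rose by 1.18, while Fkbp5 (-0.28), Tsc22d3 (-0.25) and Per1 (0.32) did not pass. Of 18 clock genes 3 rose and 2 fell, among them Nfil3 (1.26) and Bhlhe40 (0.89) that rose, while Per2 (-0.17) and Clock (0.04) did not pass. Neither the hour of collection nor handling of control mice is in the labels, so their part was not tested.

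Epithelial genes were examined as families after their values had been seen. Of 15 claudins, the sealing proteins of tight junctions, 5 rose and 1 fell, with a median of 0.24. Cldn6 stood at 5.47, 8.01, 8.32, 6.28 and 6.998 TPM in controls and 28.0, 19.2, 23.95, 33.4 and 27.8 TPM at 6 h. Cldn4 went from 40.2 to 60.2 TPM to 97.8 to 165 TPM, whereas Cldn11, the claudin of basal cells of the stria, fell by 0.64 ± 0.13 (adjusted p = 0.00774). Of 11 keratins 3 rose and none fell. Those were Krt23 (1.30) and the partners of simple epithelia Krt8 (1.18) and Krt18 (1.04), each with no overlap between groups.

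Falls were smaller than rises. Predicted genes left out, the largest among those that averaged 5 TPM or more in controls and whose groups were apart was that of Kcnf1, a potassium channel subunit that is silent on its own. It stood at 4.96, 4.05, 4.11, 8.48 and 4.98 TPM in controls and 1.09, 0.702, 1.63, 0.0349 and 0 TPM at 6 h (-1.96 ± 0.32, adjusted p = 0.00153). The melanoma antigen family gene Magee2 fell to between 0.0832 and 2.04 TPM, from 3.26 to 9.10 TPM in controls. Sox8, a transcription factor of glia, went from 95.9, 108, 92.4, 113 and 134 TPM to 50.1, 46.7, 54.8, 56.0 and 30.4 TPM. Fscn1, an actin-bundling protein, Amt, an enzyme of glycine cleavage, and Vtn, vitronectin, fell by 1.02, 1.02 and 0.93. Their groups were apart, which the rule for naming them required.

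Genes of the lateral wall and of ion transport were among the falls at high level. Otor, a secreted protein of cochlear fibrocytes, stood at 527, 476, 474, 355 and 335 TPM in controls and 261, 219, 246, 193 and 188 TPM at 6 h (-0.95 ± 0.09, adjusted p = 2.09e-05). Slc4a11, an ion transporter of fibrocytes, went from 1009.8, 1302, 972, 1194 and 1579 TPM to 637, 509, 672, 851 and 704 TPM. S100b, a calcium-binding protein of glia, lay at 3997 to 6009 TPM in controls and 2038 to 3522 TPM at 6 h, and these 3 genes had no overlap between groups. Of 30 connexin and endolymph transport genes none rose and 7 fell, with a median of -0.13. They were Aqp2 (-1.14), Bsnd (-0.76), Aqp5 (-0.72), Gjb6 (-0.57), Gjb2 (-0.42), Car2 (-0.29) and Car12 (-0.28). Gjb2 and Gjb6, whose connexins form the gap junctions of supporting cells and fibrocytes, lay at 1263 to 1664 TPM and 629 to 741 TPM in controls and at 894 to 1223 TPM and 406 to 495 TPM at 6 h. The potassium channel gene Kcnj13 fell by 1.21 ± 0.17 and Kcne1, Kcnq1, Kcnj10 and Slc12a2, the core of endolymph secretion, did not pass. Of 29 tested in the Prestin libraries alone 2 passed, with median-of-ratios scaling 5 of the 30 passed, and without Sox2 control replicate 1 there were 4.

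Nuclear genes of the respiratory chain and interferon-stimulated genes had falls in a minority of members. Of 26 respiratory chain subunits none rose and 5 fell, with a median of -0.23, but none passed with the Prestin libraries alone and 1 without Sox2 control replicate 1. Of 33 interferon-stimulated genes 1, Irf1, rose and 4 fell, with a median of -0.21. Ifit3, an antiviral effector, stood at 143, 109.7, 197, 135 and 106 TPM in controls and at 69.8, 47.9, 108, 38.3 and 67.3 TPM at 6 h (-1.10 ± 0.25, adjusted p = 0.0126), and Ifi44 (-0.92) and Dhx58 (-0.73) fell too. Irf1 was at 19.7, 18.8 and 18.9 TPM in the Prestin libraries at 6 h but at 13.3 and 8.45 TPM in the Sox2 libraries, against 6.05 to 8.77 TPM in controls. None of the interferon-stimulated genes fell in the Prestin libraries alone, 1 fell without Prestin 6 h replicate 2 and 2 without Sox2 6 h replicate 4. Of 16 antigen presentation genes none rose and 1, the immunoproteasome subunit Psmb8, fell, where 4.71% of all genes tested fell. None of them fell without Sox2 control replicate 1.

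Markers of cell types were checked against these results. Of 7 outer hair cell genes tested none rose and 1, Lbh, fell, a call that was lost with the Prestin libraries alone, with median-of-ratios scaling and without any 1 of several libraries. Slc26a5 (prestin) was at 0.949 to 1.505 TPM in controls and 1.14 to 2.29 TPM at 6 h, and Ocm (oncomodulin) at 49.1 to 63.5 TPM and 42.1 to 78.7 TPM, the groups overlapping for both. None of 5 inner hair cell genes, 13 hair bundle genes, 14 spiral ganglion neuron genes or 15 endothelial and pericyte genes passed. In the Prestin libraries alone 1 spiral ganglion neuron gene fell, and the median of that list was -0.51 in place of -0.15. Of 21 supporting cell genes Ceacam16 (0.67), Otog (0.45) and Cd44 (0.91) rose and none fell, and both Ceacam16 and Otog encode parts of the tectorial membrane. Among 10 fibrocyte genes only Slc4a11 passed, Coch and Otos being -0.09 and -0.41. The summed level of this list, Slc4a11 included, was 9884 to 12022 TPM at 6 h and 12700 to 14963 TPM in controls, without overlap. The difference in this sum was not tested. In Schwann cells and satellite glia, 1 of 19 genes rose (Erbb3) and 1 fell (Sox8), with the myelin gene Mbp (-0.31) not passing.

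Of the markers of blood cells, few passed. Of 10 neutrophil genes tested none passed, with a median of -0.93, and their summed level was 65.4 to 178 TPM at 6 h and 110 to 493 TPM in controls. Of 11 macrophage and monocyte genes 1 rose and 1 fell, and in the Prestin libraries alone 2 rose and none fell. Cd14, the lipopolysaccharide co-receptor, stood at 9.79, 10.00, 16.01, 29.5 and 13.9 TPM in controls and 64.8, 60.9, 64.7, 69.5 and 101 TPM at 6 h, while the complement gene C1qa fell by 0.63 ± 0.14 and Csf1r was -0.15. Of 6 erythroid genes tested 3 fell, with a median of -0.76 and a summed level of 955 to 1724 TPM against 1820 to 4158 TPM in controls. The falls numbered 1 in the Prestin libraries alone, 1 without Sox2 6 h replicate 4 and 2 without Sox2 control replicate 1. Haemoglobin genes held 0.0953% to 0.172% of the TPM at 6 h and 0.181% to 0.415% in controls, without overlap (mean difference -0.116, exact permutation test within strains, two-sided p = 0.0167, the smallest that 120 arrangements allow). Hba-a1 and Hba-a2, both among the falls, are near-identical copies. The part of the blood content in any result was not tested.

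Each strain was also fitted on its own contrast. In the Prestin strain 308 genes rose (2.17%) and 199 fell (1.4%), 3.57% in all. In the Sox2 strain 456 rose (3.21%) and 1350 fell (9.5%), 12.7% in all. The Sox2 strain gave 55 calls with library weights and 143 when its inputs were fitted alone. Without Sox2 6 h replicate 2 it gave 4065 calls and without Sox2 control replicate 1 it gave 467, while leaving out single Prestin libraries left the Prestin strain with 233 to 316 calls for 5 of the 6. The strains share no library in these contrasts, but both contrasts come from the same fit and share its estimate of spread. The calls of the strains are therefore not independent of each other. The 189 genes higher in both make up 61.4% of the Prestin rises and 41.5% of the Sox2 rises, while the 88 lower in both make up 44.2% and 6.52% of the falls. Of the 308 Prestin rises 288 had the same sign in the Sox2 strain, and of the 199 falls 178. Of the 456 Sox2 rises 388 had the same sign in the Prestin strain, and of the 1350 falls 993. The median of all genes tested was -0.04 in the Prestin strain and -0.13 in the Sox2 strain. Most genes therefore lay below 0 in each strain, and the agreement of the falls in sign is to be read beside that. For Gdf15 the difference was 6.35 in the Prestin strain and 5.20 in the Sox2 strain, for Gem 4.73 and 4.76, and for Maff 3.96 and 4.21. The test of the strain difference was not passed by any of these 3 (adjusted p = 0.482, 0.988 and 0.831).

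**Figure D4:**
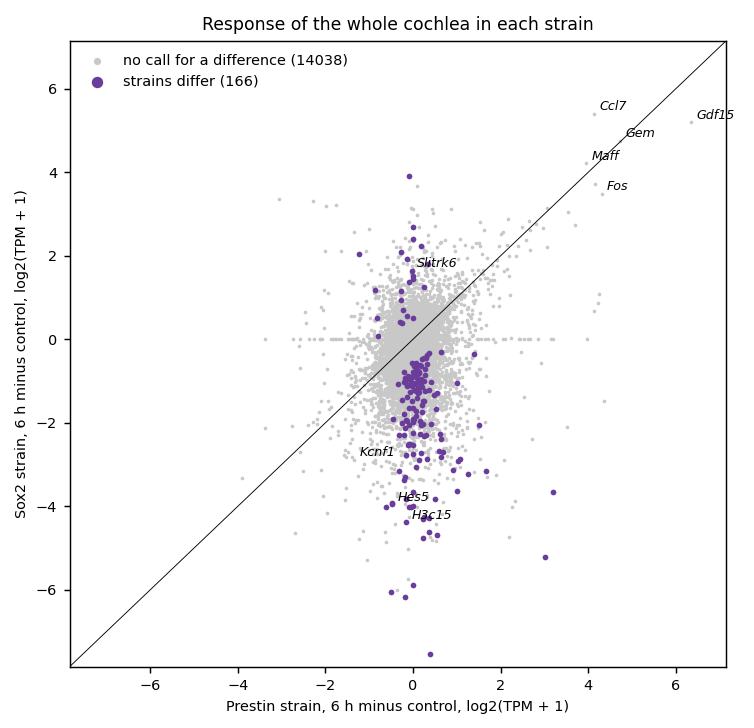
Each point is a gene, with its difference between 6 h and control as log2(TPM + 1) in the Prestin strain on the horizontal axis and in the Sox2 strain on the vertical axis; purple points (166) differ between strains by the interaction test and the line marks equality. Gem and Maff lie near the line, and Gdf15 (6.35 and 5.20) and Fos (4.30 and 3.49) lie below it. Most purple points lie near 0 in the Prestin strain and below 0 in the Sox2 strain.

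A test of the difference itself called 166 genes (1.17%), 23 with a higher (0.162%) and 143 with a lower response in the Sox2 strain (1.01%). Of the 544 genes that rose 2 were among them and of the 669 that fell 7 were. Slitrk6, a supporting cell gene, was at 4.49 and 6.40 TPM in the Sox2 controls and 19.2 and 18.7 TPM at 6 h, but at 11.4 to 13.5 TPM and 8.46 to 15.6 TPM in the Prestin strain (difference of 1.67, adjusted p = 0.0294). The heat shock factor Hsf4 and the hedgehog ligand Dhh also differed, by 2.05 and 1.43. On the other side, Hes5, a Notch target of supporting cells, was at 15.7 and 16.6 TPM in the Sox2 controls and 0.231 and 0 TPM at 6 h, while the Prestin libraries lay at 1.62 to 4.79 TPM and 0.905 to 2.88 TPM (adjusted p = 0.00881). In the contrast of the Sox2 strain, Sst (-6.01), Zcchc12 (-5.29) and Olig1 (-4.74) fell, but the test of the difference did not call them. Zcchc12 went from 43.6 and 55.2 TPM to 0.257 and 0.296 TPM there. Whether the Sox2 libraries differed in their content of neural tissue was not tested. The chemokine Cx3cl1 was at 27.6 to 36.2 TPM in the Prestin controls and 26.3 to 33.1 TPM at 6 h, but went from 60.8 and 62.7 TPM to 31.6 and 24.8 TPM in the Sox2 strain (adjusted p = 0.0224). The histone gene H3c15, with a difference of -4.23, belongs to a family with near-identical copies. The count of 166 rested on single libraries, being 2090 without Sox2 6 h replicate 2, 52 without Sox2 control replicate 1 and 73 without Prestin control replicate 1, and it was 8 with library weights. The Sox2 libraries at 6 h list the fewest genes above 0, and the part of this in the 143 lower responses was not tested.

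The inputs taken 24 h after noise place the 6 h levels in time. Against 6 h, 1790 genes were higher at 24 h (12.6%) and 494 lower (3.48%), 16.1% in all. Against the same controls, 537 genes were higher at 24 h (3.78%) and 94 lower (0.662%), 4.44% in all. These comparisons share libraries with the one at 6 h, so values are given side by side. Gdf15 was at 2.56 to 17.0 TPM at 24 h (-4.73 against 6 h), Gem at 4.36 to 16.7 TPM, Fos at 9.80 to 20.6 TPM and Maff at 5.55 to 12.8 TPM, each lower than at 6 h by the test. The 24 h ranges of Gem and Maff lay above all 5 controls. Of the 12 Fos, Jun, Maf and Atf3 genes 11 were lower at 24 h than at 6 h, of the 22 Egr, Nr4a, Ier and Klf genes 14, and of the 14 phosphatases and inhibitors 8. Ccl7 and Ccl2, by contrast, lay at 17.97 to 41.6 TPM and 31.0 to 93.7 TPM at 24 h, differences from 6 h of -0.44 and 0.37 that did not pass. Stat3 (-0.02), Nfkb2 (0.02) and Bcl3 (0.01) also differed little between the times, and Osmr (0.33) did not pass.

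Other genes were higher at 24 h than at 6 h. Of 33 interferon-stimulated genes 32 were higher at 24 h and of 16 antigen presentation genes 12. Ifit3, below control at 6 h, reached 415 to 689 TPM at 24 h, and Psmb8 47.7 to 77.1 TPM against 3.04 to 12.01 TPM at 6 h. Cxcl10, an interferon-induced chemokine, was at 15.4 to 31.2 TPM at 6 h and 144 to 344 TPM at 24 h (2.99, adjusted p = 0.000207). Timp1, an inhibitor of matrix proteases, was at 2.16 to 6.66 TPM and then at 22.5 to 42.9 TPM, and Icam1 at 3.58 to 9.79 TPM and then 9.50 to 17.3 TPM. Of 11 macrophage genes 6 were higher at 24 h, C1qa among them. Slc4a11, Otor and Gjb2 were higher at 24 h than at 6 h by 1.18, 0.78 and 0.82, whereas S100b (-0.26) and Acan (0.26) were not called and stayed below control at 24 h (-1.09 and -0.47).

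**Figure D5:**
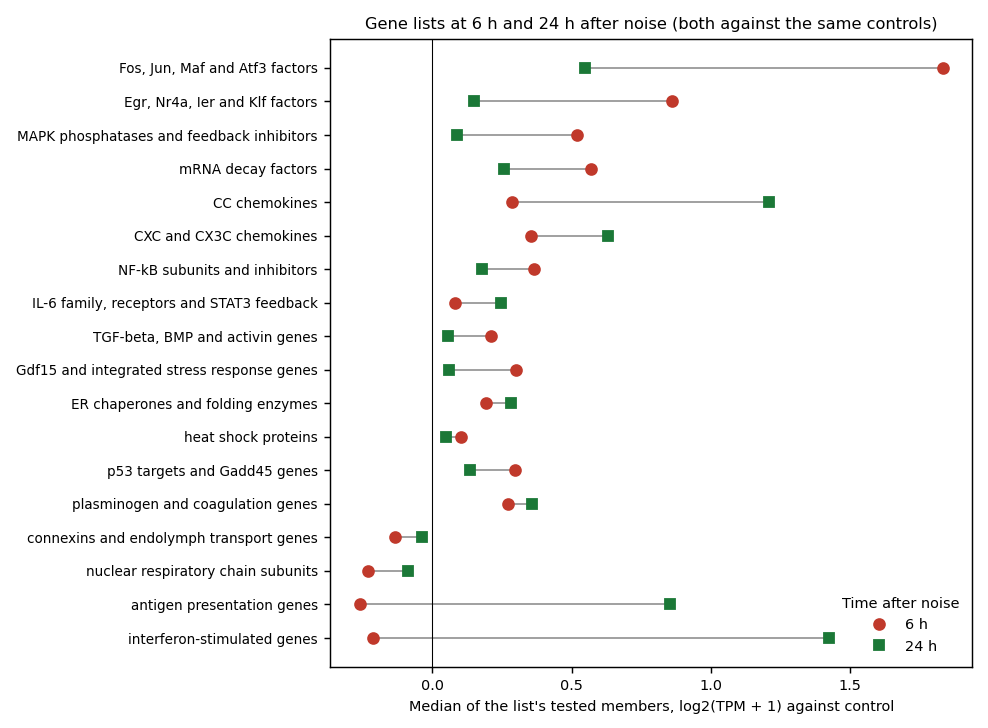
Median difference from control, as log2(TPM + 1), of the tested members of 18 gene lists at 6 h (red circles) and 24 h (green squares), both against the same 5 control libraries. Immediate early lists lie farther right at 6 h (1.83 against 0.55 for the Fos, Jun, Maf and Atf3 factors), and interferon-stimulated genes lie left of 0 at 6 h (-0.21) and at 1.42 at 24 h.

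The pull-downs came from the same homogenates and were made to capture RNA on tagged ribosomes. How much other RNA they carried over was not tested, so a change in an IP is not by itself placed in the tagged cells. Between 6 h and control, Gdf15 differed by 6.35 in the IP of the Prestin strain (outer hair cells) and by 5.43 in that of the Sox2 strain (supporting cells), Fos by 3.99 and 2.25, Ccl7 by 4.97 and 5.22, and Tnfrsf12a by 3.11 and 3.49. The test of the difference between IP and input responses was not passed by these 4 genes. In all, 420 of 17363 genes (2.42%) responded differently in the outer hair cell IP than in the Prestin inputs, 26 higher (0.15%) and 394 lower (2.27%), and 822 with the homogenate as a block, 70 higher and 752 lower. This count fell to 48 with median-of-ratios scaling and to 35 with a pseudocount of 0.1, and it lay between 32 (without control homogenate 1) and 819 (without control homogenate 2) when 1 homogenate was left out. Among them, B2m, the light chain of MHC class I, differed by 0.92 in the IP and -0.04 in the input, and the nuclear RNA Malat1 by -1.58 and 0.10. In the supporting cell IP 50 of 18560 genes (0.269%) responded differently from the Sox2 inputs, 24 higher (0.129%) and 26 lower (0.14%), and 4 without control homogenate 4 or 454 without 6 h homogenate 2. Mdk, midkine, differed by -2.37 in the supporting cell IP and -0.31 in the input, and Ndufa4l2 by -4.18 and -0.10. The neutrophil granule gene Ngp differed by 4.45 in the supporting cell IP and -1.69 in the input.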

How the data were processed

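Total RNA libraries of whole cochleae were analysed in 5 samples at 6 h and 5 controls, with the 6 inputs at 24 h and the matched HA pull-downs beside them. The authors deposited TPM values per gene, 1 table per library. Per the submitters' processing notes, reads were handled with TopHat and the build GRCm38. For the counter, the tool behind the TPM, the annotation, versions and strandedness of counting, information is not given in the sources used here. The labels' protocols name a strand-preserving library kit. The 39399 genes listed for both strains were used as deposited.

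Genes with at least 1 TPM in at least 5 of the 16 inputs (14204 genes) were tested on log2(TPM + 1), pseudocount 1, with limma 3.58.1 in R 4.3.3 (lmFit and eBayes with a mean-variance trend), with strain and time as terms and all 16 inputs in the fit. P-values were adjusted over all genes tested (Benjamini-Hochberg, threshold 0.05). Pull-downs were compared with their inputs by interaction terms, within each strain, on genes with 1 TPM in 3 (Prestin) or 2 (Sox2) libraries. Library shares were compared by exact permutation within strains. Scripts were tested on simulated data. Tables and figures were made with python 3.11.15, pandas 2.3.3, numpy 2.4.6 and matplotlib 3.10.9.

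Gene positions are those of GENCODE M21 (14204 of 14204 genes matched), and promoter windows are from RefSeq (GRCm38.p6), given for 9768 of the genes tested. TPM keep no read depth, so no counting error can be given.

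The members and gene lists were chosen with earlier results of these data known. Named were Gdf15, Fos and Ccl7, up to 15 genes each way with the largest changes, at least 5 TPM and no overlap between groups, up to 5 members of a list with the smallest p, up to 8 genes each way per other comparison, and members needed to say what a list holds. Claudins and keratins were taken as families after their values were seen. Alternatives covered the pseudocount, the filter, the scaling, the genes used, library weights, the replicate number as a block, the libraries in the fit, each strain alone and each library left out. List counts in the Prestin inputs alone and without Sox2 control replicate 1, and the alternatives for 24 h against control, were chosen after seeing the data. Some genes that the naming rule picks are not reported here.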

Additional observations from a re-analysis of the deposited data

Results flagged for a closer look

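Of 184 named genes checked in the 5 controls and in the 5 libraries at 6 h (368 groups), 21 groups had a library far from the other 4; chance flags about 1 in 20 groups. Among controls, Sox2 replicate 1 was high for Kcnf1 (8.48 TPM) and Sox2 replicate 4 for Sgk1 (14.05 TPM). Prestin control replicate 2 was the only library above 0 for Cxcl2 (0.670 TPM) and Ccl4 (0.110 TPM). Prestin control replicate 1 was low for Cebpb (40.4 TPM) and Hspb1 (102 TPM), and replicate 3 for Chac1 (1.32 TPM) and Mdk (69.2 TPM).

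At 6 h, Sox2 replicate 4 was high for Egr1 (188 TPM), Rel (4.07 TPM), Btg2 (145 TPM), Nfil3 (15.3 TPM) and Cd14 (101 TPM), and low for Magee2 (0.0832 TPM). Sox2 replicate 2 was low for Cxcl1 (0 TPM), Col9a1 (0.568 TPM), Per1 (27.1 TPM), Vtn (8.63 TPM) and Bsnd (4.92 TPM). Prestin replicate 2 was low for Tgfb2 (9.70 TPM) and Otog (4.04 TPM).

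The response at 6 h differed between strains, by the test of the difference (limma, Benjamini-Hochberg over all genes tested), for 6 named genes. The Sox2 response minus the Prestin response was 1.67 for Slitrk6, 2.05 for Hsf4, 1.43 for Dhh, -3.47 for Hes5, -1.08 for Cx3cl1 and -4.23 for H3c15. With the replicate number as a block 1 of the 6, H3c15, passed, and with library weights the same 1.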

How the results depend on the processing

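Of the genes named, none changed sign among those called, under any alternative run for 6 h against control, the strain difference or 24 h against 6 h. Many lost their call at 6 h, 105 of 184 with the Sox2 inputs alone, 36 of 182 with the Prestin inputs alone, 30 with only the libraries compared, 27 with the replicate block and 5 to 18 with 1 library left out. For 6 h against control, 1213 genes passed. The count became 562 when the 10 libraries were fitted alone, 661 with the Prestin inputs alone and 143 with the Sox2 inputs alone, and 783 to 1619 with 1 library left out, the lowest without Sox2 control replicate 1. The labels do not say what a replicate number shares. Deviations from the group mean in same-numbered control and 6 h libraries correlated at 0.044, -0.052 and 0.016 in the Prestin strain. The Sox2 value was -0.024. With 2 libraries per group, deviations mirror each other, so that value cannot show whether numbers pair the libraries. With the number as a replicate block, 643 genes passed at 6 h, 1016 between 24 h and 6 h, 329 between 24 h and control, 259 in the Prestin strain, 992 in the Sox2 strain and 90 for the strain difference. In the IP comparisons the number as a fixed replicate block gave 214 and 9 genes, and the homogenate as a replicate block 822 for outer hair cells.

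The Prestin strain gave 507 calls, or 1058 with library weights, 198 when only the libraries compared were fitted, and 233 to 799 with 1 library left out. The Sox2 strain gave 1806, or 55, 698 and 467 to 4065. The strain difference gave 166, or 8, 65 and 52 to 2090, and 270 with a pseudocount of 0.1. Between 24 h and 6 h there were 1740 to 2441 calls with 1 library left out, and between 24 h and control 1663 with library weights. For outer hair cells 48 passed with median-of-ratios scaling, 35 with a pseudocount of 0.1 and 32 to 819 with 1 homogenate left out. For supporting cells 79 passed without a filter and 4 to 454 with 1 homogenate left out. Where leaving out a library left 1 in an arm, the lone sample was assumed to vary like the other groups. The mean difference was 1.87 to 3.46 for the mitochondrial share, -0.134 to -0.0760 for the haemoglobin share, whose p reached 0.05 without any 1 of the Prestin 6 h libraries, and -1747 to -1079 for genes above 0, with p = 0.0167 by exact permutation without Prestin 6 h replicate 2. The causes were not tested.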
